A study of Bos taurus with 27 samples.

Results

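Abundance of 50 genes that drive or mark the cell cycle was described in pools of bovine (Bos taurus) blastocysts produced in vitro. The genes were a named list of cyclins, cyclin-dependent kinases and their inhibitors, replication licensing factors, spindle and kinetochore proteins and proliferation markers, and all 50 were found by symbol among the 32637 genes of the count table. Each of the 27 libraries held RNA of 2 expanding or expanded blastocysts of the best quality score, from oocytes of abattoir ovaries matured with added follicular fluid. The fluid came from preovulatory follicles that were either more or less mature. Embryos of both kinds shared the sire and the culture medium. The labels used here do not say which kind of fluid a pool had, so the 27 pools were treated as 1 group, values are given as ranges and medians or for single pools, and no comparison between the fluids was made. Pools are named by their numbers in the labels.

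In the cell cycle, D-type and E-type cyclins with CDK4, CDK6 and CDK2 carry a cell through G1, the MCM helicase is loaded on origins and fired in S phase, and CDK1 with cyclins A and B drives entry into mitosis. The spindle checkpoint then holds chromosome segregation until every kinetochore is attached, after which the anaphase-promoting complex marks cyclin B and other proteins for destruction. Many of the mitotic transcripts are made mainly in G2 and M phase, so their abundance in a dividing tissue is often read as a measure of proliferation. Early cleavage cycles run with short gap phases, and the blastocyst is the stage at which an outer trophectoderm and an inner cell mass have formed.

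Pools held from 10517606 to 44253564 counts on genes (median 22293594). Abundance is given as CPM, the count of a gene per 1e+06 counts of its pool, and a gene was retained when it reached 1 CPM in at least 12 pools, which 12310 genes did. The depth puts the abundance of 3 counts, taken here as the lowest that can be told from 0, between 0.0678 and 0.285 CPM, for counting error only. The epiblast markers summed to 303 to 1273 CPM, the trophectoderm markers to 16261 to 41304 CPM, the leukocyte markers to 201 to 574 CPM, of which CD48 alone had 188 to 530 CPM, and the cumulus and granulosa markers to 23.8 to 79.7 CPM. Of the hypoblast markers GATA4, SOX17 and FOXA2 were not retained, and neither were CD3E, LAPTM5 and CD69 of the leukocyte list. In a pool of whole embryos, fewer cells of a type and less RNA per cell cannot be told apart.

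Of the 50 genes, 48 were retained, and 44 of these reached 1 CPM in every pool. Abundant transcripts were frequent among them. A median of at least 100 CPM was found for 19 of the 48, or 39.6%, against 14.7% of all retained genes. Their summed abundance was lowest in pool 33 at 4906 CPM and highest in pool 32 at 7497 CPM, with a median of 5866 CPM, so they took between 0.491% and 0.750% of the counts of a pool. The libraries were primed at transcript ends, so CPM was not divided by transcript length, and levels of different genes are compared on that scale only.

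**Figure D1:**
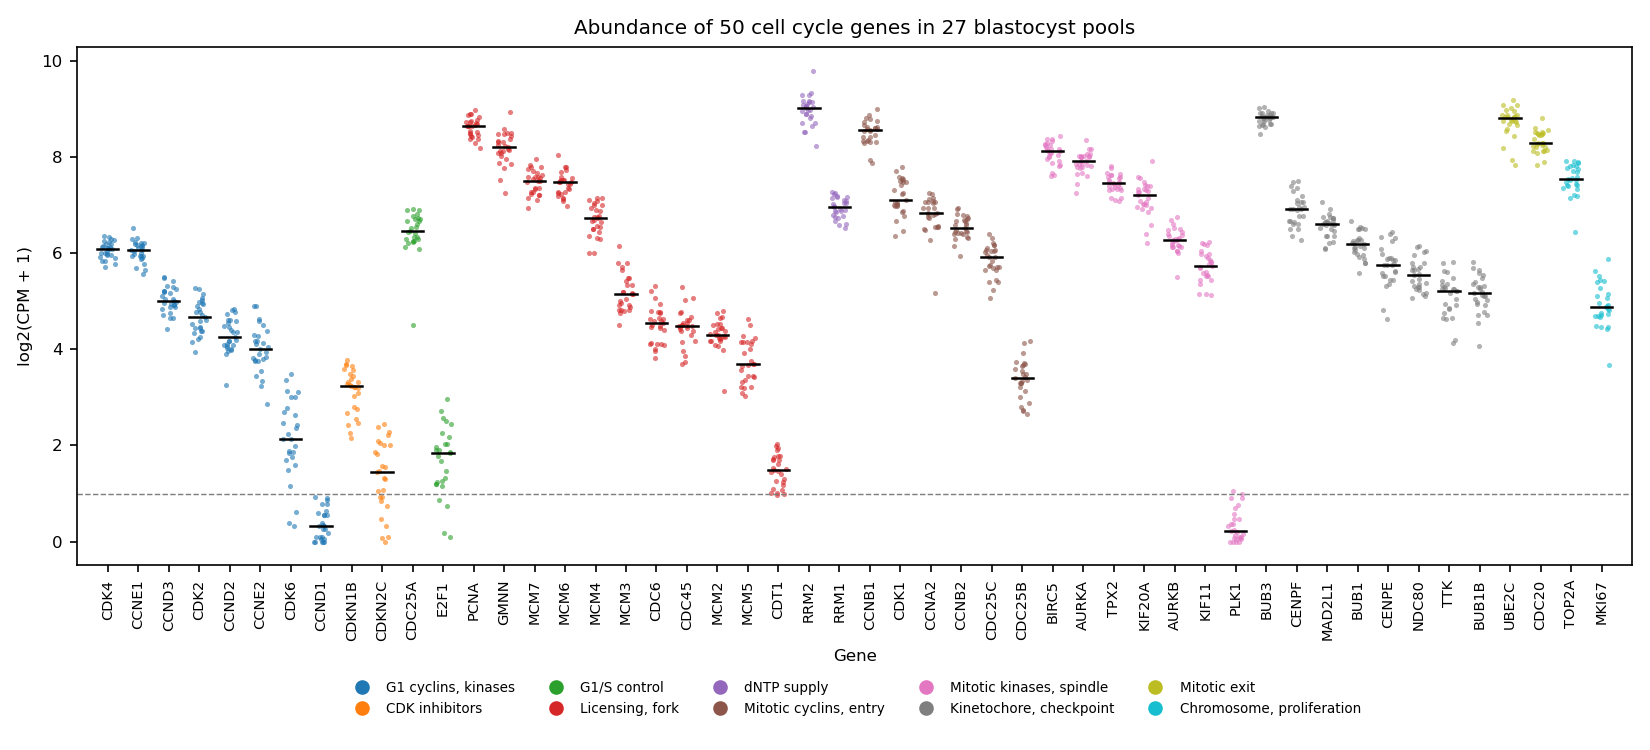
Abundance of the 50 cell cycle genes on the log2(CPM + 1) scale, 1 point per blastocyst pool (27 per gene), with the median as a black bar and 1 CPM as a dashed line. Genes are ordered by role and then by median. RRM2, BUB3 and UBE2C stand highest, and PLK1 and CCND1 lie at or under the 1 CPM line in nearly every pool.

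Among the G1 cyclins and kinases, CDK4 and cyclin E1 were the most abundant. CDK4, the main partner of D-type cyclins, was at 51.7 CPM in the lowest pool, 67.3 CPM at the median and 80.8 CPM in the highest. Its close relative CDK6 was at 0.257, 3.41 and 10.2 CPM on the same 3 measures, below CDK4 in all 27 pools. Cyclin E1 (CCNE1), which activates CDK2 at the end of G1, ran from 46.1 to 91.7 CPM with a median of 65.7 CPM. Cyclin E2 (CCNE2) ran from 6.32 to 28.9 CPM with a median of 15.1 CPM. CCNE1 exceeded CCNE2 in all 27 pools, by a median ratio of 4.05. CDK2 itself had a median of 24.6 CPM and ran from 14.4 to 38.0 CPM.

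The D-type cyclins differed widely in level. CCND3 was the highest, at 20.4 to 44.4 CPM with a median of 31.0 CPM. CCND2 was at 8.54 to 27.6 CPM with a median of 18.1 CPM, under CCND3 in 25 of 27 pools, so that this order did not hold in every pool. Cyclin D1 (CCND1, chromosome 29, 46889102 to 46898563 in ARS-UCD2.0) was close to the detection limit. It had 0 counts in 5 pools, more than 3 counts in 15, and at most 38 counts, with a median of 0.252 CPM and a highest value of 0.908 CPM in pool 46. Its annotated span overlaps that of LTO1, and the strand setting of the counting is not given in the sources used here, so reads of overlapping genes may not be told apart. Of all 50 genes 15 overlap another annotated gene. CCNE2, with INTS8, and CDK6, with uncharacterised loci, are among them, so the comparisons above with CCNE1 and CDK4 share this limit.

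The inhibitors and activators of the G1/S step were mostly scarce and varied most between pools. The inhibitor p27 (CDKN1B) was at 3.46 to 12.7 CPM with a median of 8.42 CPM. The CDK4 and CDK6 inhibitor p18 (CDKN2C) was not counted in 1 pool and reached 4.41 CPM in pool 14, with a median of 1.74 CPM. E2F1, the transcription factor that switches on S phase genes, was at 0.0652 to 6.82 CPM with a median of 2.58 CPM, and its lowest value, in pool 31, rested on 2 counts. The phosphatase CDC25A, which removes the inhibitory phosphate from CDK2 and CDK1, was the exception in this group. It was at 87.6 CPM at the median and between 67.4 and 121 CPM in 26 pools, but at 21.8 CPM in pool 9.

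Genes of replication licensing and of the fork lay far apart in level. PCNA, the sliding clamp of the polymerases, was at 291, 403 and 504 CPM in its lowest, median and highest pool. Geminin (GMNN), which blocks a second licensing of origins, was at 151, 295 and 489 CPM. CDT1, the loading factor that geminin binds, was at 0.964, 1.82 and 3.10 CPM. Thus geminin transcripts exceeded those of CDT1 in every pool, with a ratio between 62.5 and 385 and a median of 174. CDC6, which loads the helicase together with CDT1, had a median of 22.5 CPM (13.2 to 39.2 CPM), and CDC45, a part of the active helicase, one of 21.5 CPM (11.9 to 38.2 CPM).

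The 6 subunits of the MCM helicase act in the cell as a ring with 1 copy of each, yet their transcripts were not equal. MCM7 and MCM6 had the highest medians, 179 CPM (123 to 249 CPM) and 177 CPM (126 to 261 CPM), and could not be ordered, since MCM7 was higher in 15 of 27 pools. MCM4 followed at 105 CPM (63.2 to 140 CPM), below MCM6 in 26 of 27 pools. MCM3 had a median of 34.6 CPM (21.9 to 70.5 CPM) and was below MCM4 in every pool, and MCM2 had one of 18.7 CPM (7.78 to 26.9 CPM) and was below MCM3 in every pool. MCM5 was the lowest, with a median of 11.9 CPM (7.15 to 23.9 CPM), under MCM2 in 25 of 27 pools. Ribonucleotide reductase, the enzyme that makes deoxynucleotides for replication, was uneven too. Its small subunit RRM2 had the highest median of the 50 genes, 522 CPM, and ran from 300 CPM to 892 CPM, the latter in pool 32 with 647 CPM in the next pool. The large subunit RRM1 had a median of 124 CPM (91.6 to 153 CPM) and was lower than RRM2 in all 27 pools, by a median ratio of 4.17.

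Mitotic cyclins and their kinase were abundant throughout. Cyclin B1 (CCNB1) was at 236, 377 and 512 CPM in its lowest, median and highest pool, and cyclin B2 (CCNB2) at 60.9, 90.6 and 121 CPM. CCNB1 exceeded CCNB2 in all 27 pools, by a median ratio of 4.10, and the lowest value of CCNB1 lay above the highest of CCNB2. CDK1 had a median of 138 CPM (81.2 to 223 CPM) and exceeded CDK2 in every pool. Cyclin A2 (CCNA2), which serves both S phase and mitotic entry, had a median of 113 CPM and a highest value of 152 CPM, with 35.0 CPM in pool 31 and 76.0 CPM in the next lowest. Among the phosphatases that activate CDK1, CDC25C had a median of 59.3 CPM (32.3 to 83.1 CPM) and CDC25B one of 9.57 CPM (5.27 to 17.0 CPM), and CDC25C was the higher in all 27 pools.

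Of the mitotic kinases, Aurora A (AURKA), which matures the centrosomes and the spindle, was at 151, 239 and 327 CPM. Aurora B (AURKB), the kinase of the chromosomal passenger complex, was at 44.8, 76.9 and 106 CPM. AURKA was the higher in every pool, by a median ratio of 3.17. Survivin (BIRC5), the partner of Aurora B in that complex, had a median of 277 CPM (194 to 346 CPM), and TPX2, the activator of Aurora A on the spindle, had one of 175 CPM (135 to 225 CPM). The motor proteins KIF20A, needed for cytokinesis, and KIF11, which pushes the spindle poles apart, had medians of 147 CPM (73.5 to 242 CPM) and 52.4 CPM (34.0 to 74.8 CPM).

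PLK1, a kinase of mitotic entry, spindle assembly and exit, was the other gene that was not retained. It is annotated on chromosome 25 from 21334524 to 21345063, a span that overlaps ERN2. Its counts were between 0 and 30 per pool and 201 in all, against 151983 for AURKA. It had 0 counts in 4 pools and more than 3 counts in 12. The median was 0.167 CPM and the highest value 1.07 CPM, in pool 35. Low counts at a gene end can also arise from where the annotation places that end, which was not tested.

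The spindle checkpoint and kinetochore genes were all retained. BUB3, the checkpoint protein that binds kinetochores together with BUB1, was at 354, 453 and 525 CPM, next below RRM2 in the order of medians. BUB1 had a median of 71.7 CPM (47.4 to 100.3 CPM), BUBR1 (BUB1B) one of 35.0 CPM (15.8 to 55.7 CPM), and the order BUB3, BUB1, BUB1B held in all 27 pools. MAD2 (MAD2L1) had a median of 97.1 CPM (66.9 to 133 CPM) and the checkpoint kinase TTK one of 36.4 CPM (16.6 to 55.2 CPM). At the kinetochore, CENPF had a median of 121 CPM (76.2 to 181 CPM), the motor CENPE one of 53.1 CPM (24.0 to 86.6 CPM), and NDC80, which binds microtubules, one of 45.4 CPM (32.8 to 70.1 CPM).

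At mitotic exit, UBE2C, the ubiquitin-conjugating enzyme of the anaphase-promoting complex, was at 227, 452 and 581 CPM, and CDC20, its mitotic activator, at 229, 312 and 451 CPM. Topoisomerase II alpha (TOP2A), which untangles replicated chromosomes, had a median of 187 CPM (85.8 to 242 CPM). MKI67, the gene of the Ki-67 antigen, had a median of 28.6 CPM and ranged from 11.8 CPM in pool 41 to 58.2 CPM in pool 14. In the order of all 50 medians, from RRM2 down to PLK1, the ranges of every one of the 49 neighbouring pairs overlapped, and in 0 of them was the gene with the higher median higher in all 27 pools.

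Spread between pools is given as the biological coefficient of variation, the part of the variation between pools that edgeR estimates beyond counting error, with TMM scaling. Its median was 22.8% over the 48 genes and 33.7% over all retained genes, and 41 of the 48 were below the latter. The spread falls with abundance, and at matched abundance the cell cycle genes were close to the rest. Between 10 and 30 CPM the median was 28.7% for the 8 cell cycle genes and 30.3% for all retained genes. Between 30 and 100 CPM it was 22.7% for 15 and 22.5%, and between 100 and 1000 CPM 19.2% for 19 and 17.8%. BUB3 varied least, at 12.3%, followed by TPX2 at 15.2%, CDK4 at 15.9%, survivin (BIRC5) at 16.3% and PCNA at 16.6%. The most variable were CDKN2C at 90.5%, E2F1 at 73.0%, CDK6 at 71.2%, CDT1 at 41.2% and CDKN1B at 36.2%. Between 1 and 10 CPM, where these 5 lie, the median was 56.2% for 6 cell cycle genes and 53.7% for all retained genes.

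Single pools accounted for many of the extreme values. Pool 31 was the lowest pool for 15 of the 48 genes, 31.2% of them against 17.9% of all retained genes, and pool 32 was the highest pool for 11, or 22.9% against 7.25%. With TMM scaling pool 31 was lowest for 7, 14.6% against 14.3% of all retained genes, and pool 32 highest for 8, 16.7% against 5.60%. With that scaling pool 33 was lowest for 8, 16.7% against 3.84%, and for 4 with total counts, and pool 15 was highest for 7, 14.6% against 4.47%, and for 0 with total counts. With total counts, the genes lowest in pool 31 were PCNA, GMNN, MCM6, CCNE1, CCNE2, E2F1, CCNA2, CCNB1, CDK1, CDC25C, BIRC5, KIF11, KIF20A, BUB1B and MAD2L1. MCM3 and MCM5 instead had their highest values in that pool, 70.5 and 23.9 CPM. Pool 9 was the lowest pool for 8 genes, or 16.7% against 11.6% of all retained genes, and with TMM for 5, or 10.4% against 10.6%. The 8 were CDC25A, CCND3, CDT1, CENPF and 4 MCM genes. MCM2 was at 7.78 CPM there, with 14.9 CPM in the next lowest pool, while PCNA, CDC25C, KIF11 and MAD2L1 were at their highest, 8.33% of the 48 against 7.37%. Pool 31 had the lowest epiblast marker score of all pools and pool 32 the highest. Pool 9 stood apart in interferon tau, a trophectoderm signal, with 589 CPM summed over 3 genes against a median of 40.9 CPM. The part of these differences in the values of the cell cycle genes was not tested. Pool 31 also had the fewest genes with a count, 15491 against a median of 17507. The calls across pools below were repeated without each pool in turn.

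**Figure D2:**
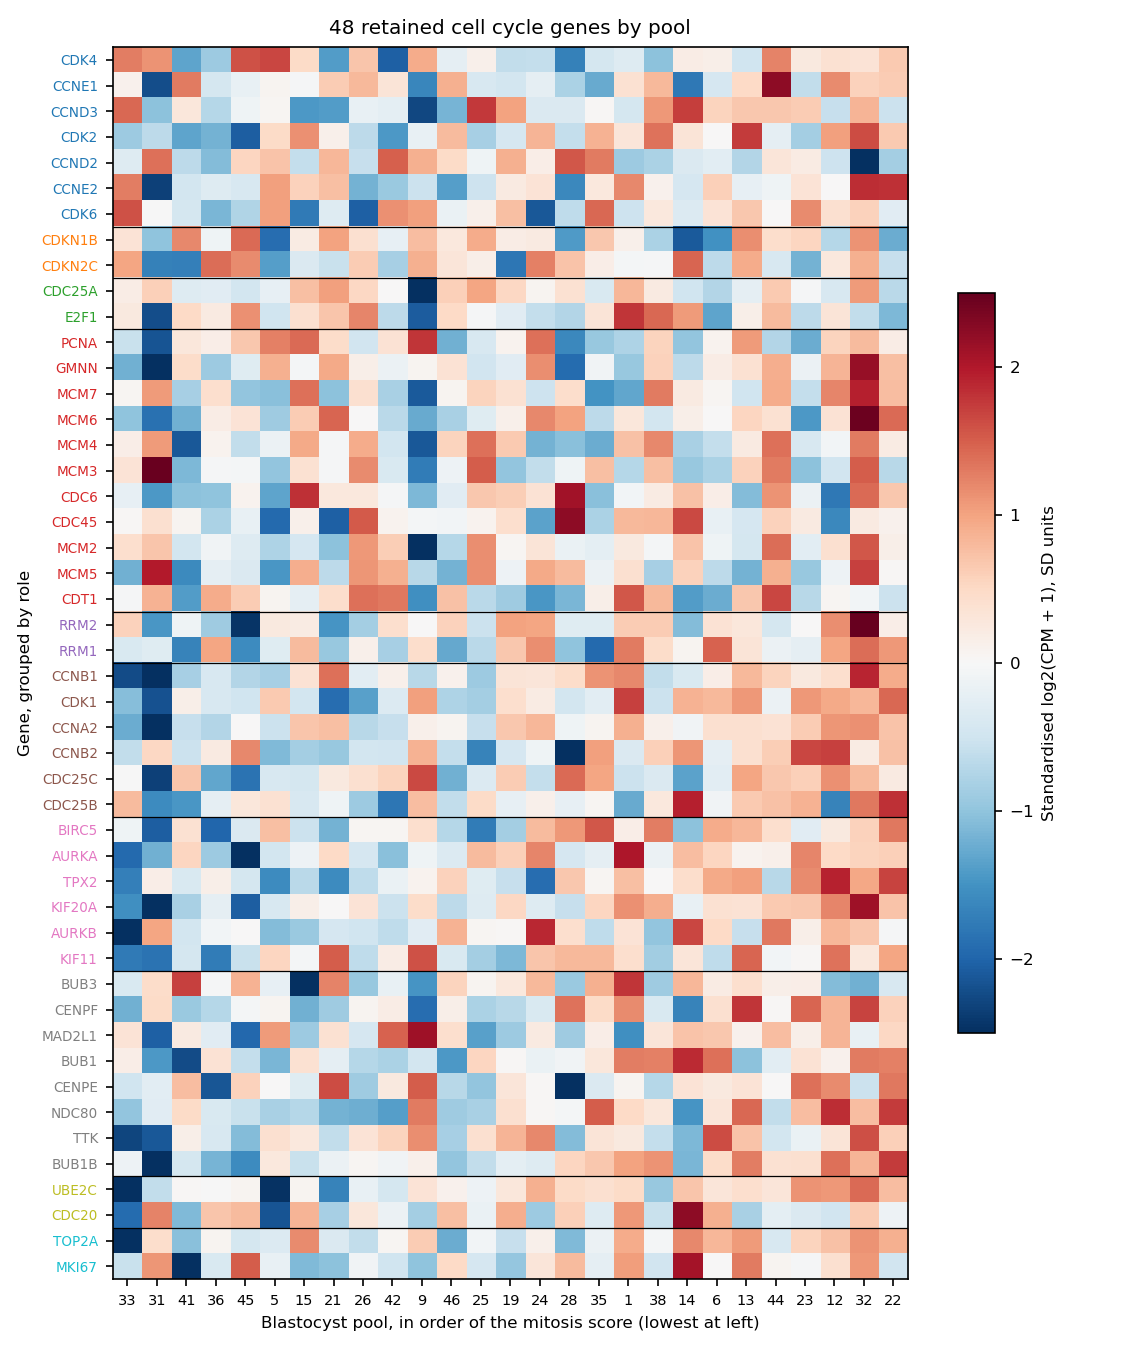
Standardised log2(CPM + 1) of the 48 retained genes (rows, grouped by role, names coloured by role) in the 27 pools (columns), ordered from the lowest to the highest mitosis score. Mitotic genes such as KIF20A, CCNA2 and CDK1 turn from blue at the left to red at the right, while pool 9 is blue in CDC25A and most MCM genes.

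Whether the 48 genes rose and fell together with the rest of the mitotic programme was tested with a mitosis score. This was the mean standardised log2(CPM + 1) of 57 other mitotic genes, such as ASPM, PRC1, NUSAP1 and FOXM1, none of them among the 50. The score was lowest in pools 33, 31 and 41 and highest in pools 22 and 32, from -1.002 to 0.678, without separate clusters. Transcripts of 8 of the 48 genes rose with the score (Spearman correlation over 27 pools, two-sided permutation test, Benjamini-Hochberg adjusted p of at most 0.05 over 12253 genes), against 1.44% of all genes tested, and 0 fell, against 0.277%. All 8 act in mitosis, out of 24 mitotic genes retained. None of the 11 retained G1 genes and none of the 13 replication genes passed. The median correlation was 0.50 for the mitotic genes, 0.26 for the replication genes and 0.04 for the G1 genes, and 0.11 for all genes tested.

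KIF20A (chromosome 7, 49613257 to 49621655, within the annotated span of CDC23) followed the score most closely. From 73.5 CPM in pool 31 and 83.6 CPM in the next lowest it rose to 242 CPM in pool 32, with rho = 0.79 (permutation adjusted p = 0.0153) and r = 0.79 (permutation adjusted p = 0.0111). Without pools 33 and 31, the pools farthest from the median score, r was 0.70. UBE2C had rho = 0.78 (permutation adjusted p = 0.0153) and r = 0.65 (permutation adjusted p = 0.0243), with 227 CPM in pool 33 and 581 CPM in pool 32. Its r without pools 33 and 31 was 0.54. BUB1B had rho = 0.72 (permutation adjusted p = 0.0260), r = 0.71 (permutation adjusted p = 0.0170) and r = 0.71 without the same pools. KIF20A and UBE2C thus both peaked in pool 32, next to the top of the score, and had their lowest values in the pools at its bottom.

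The other 5 included the CDK1 module and its spindle partners. CCNA2 (chromosome 6, 3425547 to 3432098, overlapping EXOSC9) had rho = 0.68 (permutation adjusted p = 0.0298) and r = 0.71, and CDK1 had rho = 0.66 (permutation adjusted p = 0.0298) and r = 0.66. CCNB1 had rho = 0.65 (permutation adjusted p = 0.0356) and r = 0.73, and TPX2 had rho = 0.64 (permutation adjusted p = 0.0433) and r = 0.62. AURKA was the last to pass, with rho = 0.61 (permutation adjusted p = 0.0488) and r = 0.60. The permutation adjusted p of r was between 0.0111 and 0.0349 for these 5 genes, and r without pools 33 and 31 was between 0.46 and 0.64. AURKB had rho = 0.41 and CCNB2 rho = 0.47, which did not pass.

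These calls depend on the scaling and on single pools. At an unadjusted p of 0.05, 23 of 48 passed, or 47.9%, against 17.8% of all genes. With TMM, which corrects the totals by the bulk of the genes with factors between 0.892 and 1.08, 0 of 48 passed by permutation, as did 0% of all genes, with 17 of 48 at an unadjusted p of 0.05 against 14.6%, and the 8 genes kept positive correlations between 0.46 and 0.72. A permutation p cannot fall below 1e-05, which for a lone gene is an adjusted p of 0.123. The adjusted p at this limit is lower when more genes reach it. The lowest adjusted p with TMM was 0.0613, and the part of the limit in the calls with TMM was not tested. With the p of the same coefficients taken from Student's distribution, chosen after seeing the data, 8 passed with total counts, where 2.04% of all genes rose, and CCNA2, KIF20A and UBE2C passed with TMM, where 0.253% of all genes rose. edgeR's quasi-likelihood test scaled the counts with TMM but took the score from total counts. It called CCNA2, KIF20A and BUB1B higher with the score, where 0.514% of all genes were higher and 1.26% lower. Its log2 change per SD of the score was 0.24 ± 0.05 (SE) for KIF20A (adjusted p = 0.00973, edgeR), 0.23 ± 0.06 for CCNA2 (adjusted p = 0.0437, edgeR) and 0.23 ± 0.05 for BUB1B (adjusted p = 0.0275, edgeR). By permutation with total counts, leaving out 1 pool left a median of 6 genes over 26 such omissions. Without pool 32, 1 gene was left, pool 31 left 2, pool 12 or 22 left 3, pool 13 left 4, and pool 5, 23 or 36 left 5. The shares of all genes passing without these pools are not given here. A loss of calls among the 48 can therefore not be told from a loss over all genes.

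**Figure D3:**
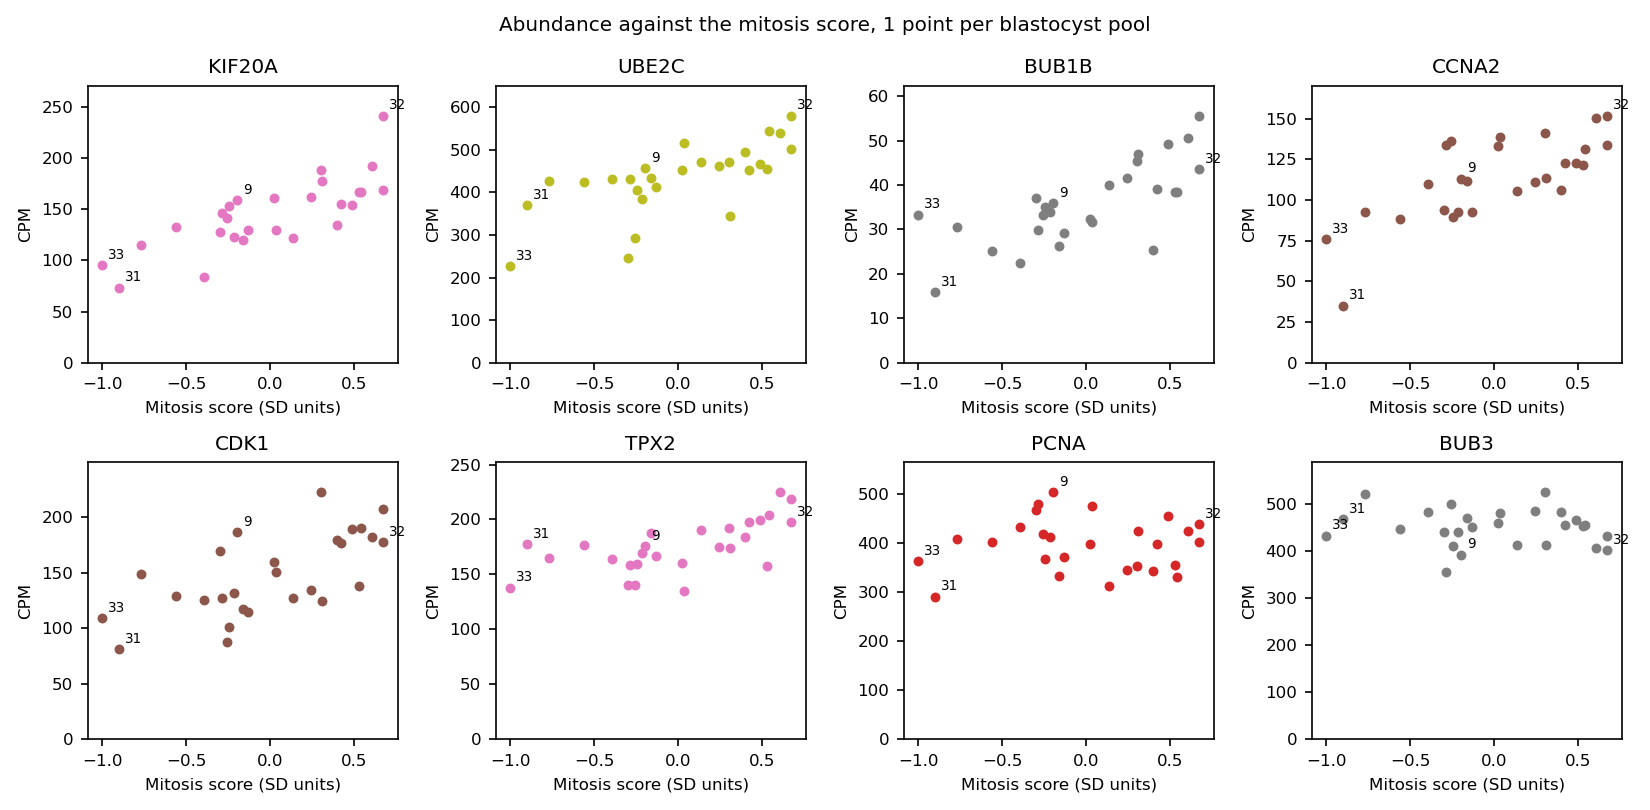
CPM of 8 genes (y axes, starting at 0) against the mitosis score in SD units (x axes), 1 point per blastocyst pool, with pools 9, 31, 32 and 33 numbered. KIF20A, UBE2C, BUB1B, CCNA2, CDK1 and TPX2 climb from left to right, while PCNA (rho = -0.06) and BUB3 (rho = -0.14) do not.

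Several well known mitotic genes did not follow the score past the threshold. CDC20 had rho = 0.10 (permutation adjusted p = 0.853), MAD2L1 rho = 0.23 and CENPE rho = 0.20. Of the 24 retained mitotic genes 23 had a positive coefficient, and BUB3 was the exception, at rho = -0.14 with total counts and -0.44 with TMM (unadjusted permutation p = 0.0221, adjusted p = 0.256). MKI67, often taken as the marker of proliferation, had rho = 0.35 (permutation adjusted p = 0.333), and TOP2A had rho = 0.50 (permutation adjusted p = 0.115).

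A replication score was made in the same way from 56 retained genes of DNA synthesis outside the list, such as ORC1, POLA1, RFC3 and TYMS. It was lowest in pool 9 and highest in pool 32. With it, 4 of the 48 genes rose, against 1.26% of the 12254 genes tested, and 0 fell, against 0.228%. These were CCNA2 (rho = 0.71, permutation adjusted p = 0.0163), KIF20A (rho = 0.71, permutation adjusted p = 0.0163), MCM6 (rho = 0.66, permutation adjusted p = 0.0295) and CCNB1 (rho = 0.64, permutation adjusted p = 0.0392). Their Pearson r was 0.57, 0.70, 0.68 and 0.61, with permutation adjusted p of 0.0620, 0.0111, 0.0129 and 0.0401. Without pools 32 and 44, the farthest in this score, it was 0.56, 0.61, 0.58 and 0.51. Only 1 of the 4, MCM6, is a replication gene (chromosome 2, 61489675 to 61524287), although all 13 replication genes had positive coefficients, also with TMM. With TMM 0 passed, by permutation (0.0571% of all genes rose and 0.0245% fell) as well as by Student's distribution, and leaving out pool 12, 13, 22, 31 or 32 left 2.

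CCND2 ran against this score. It had rho = -0.51 (permutation adjusted p = 0.131), which did not pass, and r = -0.64 (permutation adjusted p = 0.0233), and r without pools 32 and 44 was -0.56. Its lowest value was in pool 32, 8.54 CPM, with 14.0 CPM in the next pool. In edgeR's quasi-likelihood test, with TMM for the counts and the score from total counts, CCND2 fell with the score, where 1.16% of all genes fell. Its log2 change was -0.27 ± 0.06 (SE) per SD of the score (adjusted p = 0.0204, edgeR). KIF20A was the only other of the 48 called, among the 0.792% of all genes that rose.

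Both scores moved together across pools, with rho = 0.76 (permutation adjusted p = 0.00018 over 9 relations) and r = 0.73 (permutation adjusted p = 0.00018), and r = 0.73 without pools 33 and 31. With TMM rho was 0.59 (permutation adjusted p = 0.0127). Whether a gene followed one score more than the other was tested with both in 1 edgeR fit, and 0 of the 48 genes and 0% of all genes passed. At an unadjusted p of 0.05 there were 7 of 48, or 14.6%, against 5.45% of all genes. CCNE1, CDC25A, MCM2, MCM3, MCM4 and MCM7 leaned to the replication score, and CCND2 had the more negative slope on the replication score. Total count passed with none of the 48 genes, at a background of 0% of all genes, and CENPE was the only one at an unadjusted permutation p of 0.05, with rho = 0.51, against 3.36% of all genes. edgeR also called 0 with total count, with 1 at an unadjusted p of 0.05 against 2.45% of all genes. Neither the replicate of fertilisation nor the kind of fluid was assigned to the pools. Hence no value within batches or fluids was given for any of these relations. The permutations exchanged pools across both fluids, and the p-values measure the spread between these pools.

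**Figure D4:**
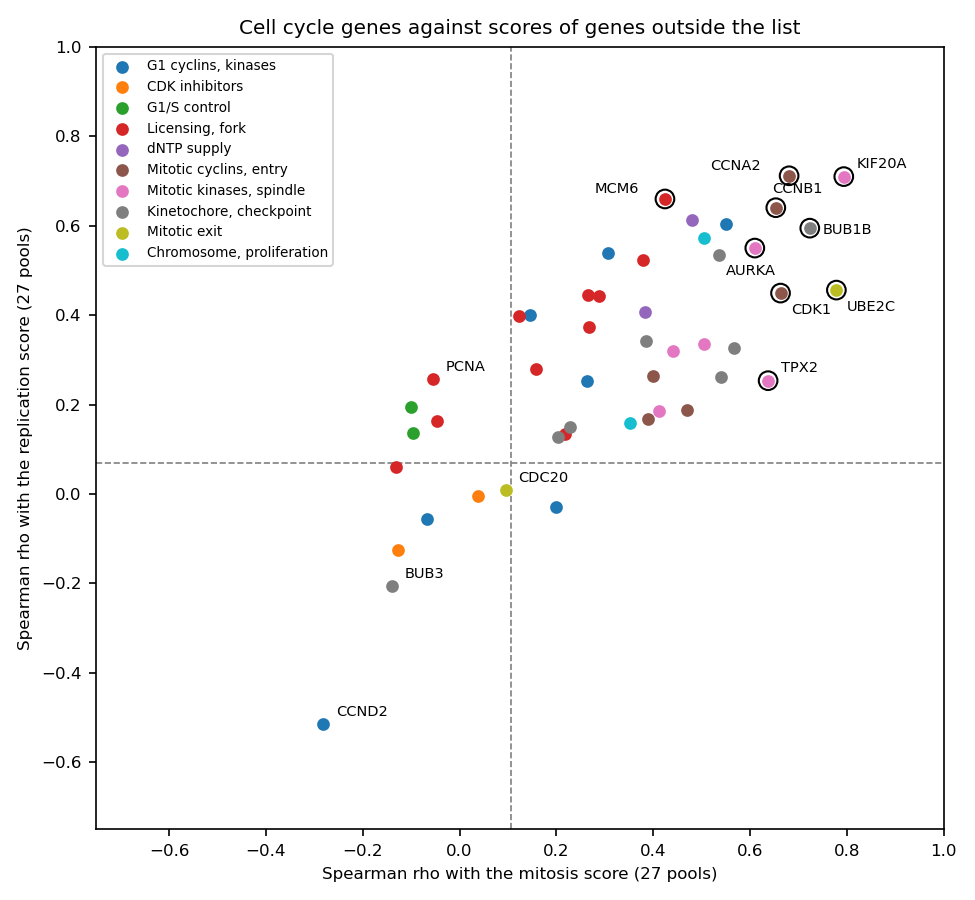
Spearman correlation with the mitosis score (x axis) and with the replication score (y axis) over 27 pools, 1 point per retained cell cycle gene, coloured by role. Circled genes passed with at least 1 of the scores, and dashed lines are the medians of all genes tested, 0.11 and 0.07. Mitotic genes lie to the right, most replication and G1 genes nearer the vertical line, and CCND2 lies alone at the bottom left.

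Lists of other cell cycle genes were tested in the same fits. Of 56 retained replication genes outside the list, genes such as DBF4, SLBP, POLD1 and TYMS rose with the mitosis score. Of 57 mitotic genes outside it, MELK, NUSAP1, CKAP2, BORA, KIF18A, TRIP13 and KIF15 rose with the replication score. Among 23 retained regulators of G1, such as RBL1, MYC, SKP2 and WEE1, 0 passed with either score, with median correlations of 0.10 and 0.04. Of 19 genes of the anaphase-promoting complex and its control, FBXO5, which encodes the inhibitor EMI1, rose with both. With TMM scaling 0 genes of these lists passed by permutation.

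Pairs of the 48 genes were then compared. Over 1128 pairs the median rho between pools was 0.093, against 0.025 for all pairs of retained genes, and 89 pairs, or 7.89%, reached 0.5, against 1.88%. With TMM the medians were 0.063 and -0.0005, and 5.23% of pairs reached 0.5 against 1.54%. These coefficients share pools and depth and are given as descriptions. Pairs of mitotic genes had a median of 0.28, pairs of replication genes 0.22 and pairs of G1 genes 0.03, and 53 of 276, 13 of 78 and 0 of 55 reached 0.5. With TMM these medians were 0.22, 0.18 and -0.02, and 31, 10 and 0 pairs reached 0.5. The closest with total counts were BIRC5 with BUB1B (rho = 0.78), CCNA2 with CCNB1 (0.76), BUB1B with KIF20A (0.74), CDK1 with UBE2C (0.74) and CCNA2 with KIF20A (0.73). In the same order they were at 0.67, 0.75, 0.68, 0.65 and 0.66 with TMM.

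The MCM genes showed a pattern of their own. All 15 pairs of the 6 genes were positive, with a median of 0.49 (0.48 with TMM, 0.42 without pool 9). MCM2 with MCM5 was the closest at 0.72. MCM6 was the least tied to the rest, at 0.16 to 0.38 with the other 5, while those 5 had between 0.40 and 0.72 among themselves. With CCNB1, CCNA2, CDK1 and CCNB2, MCM6 had rho = 0.72, 0.62, 0.16 and -0.03, with a median of 0.39 (0.34 with TMM). The other 5 had a median of -0.0021 over their 20 pairs with CDK1, CCNB1, CCNB2 and CCNA2, and MCM3 with CDK1 was the lowest of all 1128 pairs at -0.59 (-0.65 with TMM, -0.57 without pool 9). CDC25A went with MCM4, at rho = 0.71, and was positive with all 6 MCM genes. The checkpoint genes were looser. Over the 10 pairs of BUB1, BUB1B, BUB3, MAD2L1 and TTK the median was 0.04, and BUB3 was negative with each of the other 4, also with TMM.

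**Figure D5:**
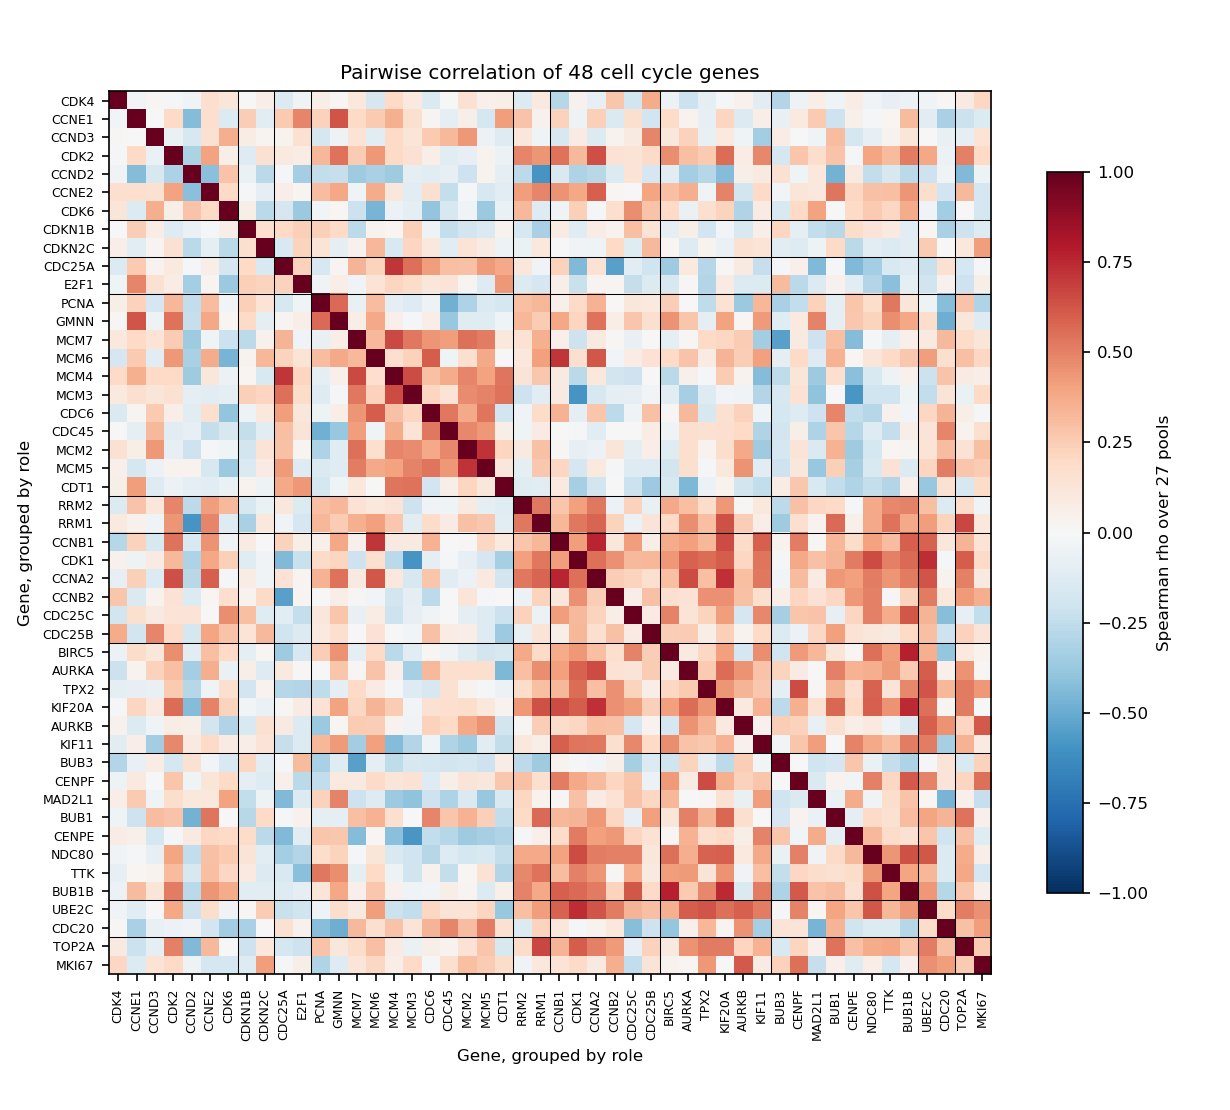
Spearman correlation over 27 pools for each pair of the 48 retained genes, grouped by role between black lines, from -1 in blue to 1 in red. MCM2, MCM3, MCM4, MCM5 and MCM7 form a red block with CDC25A, and most mitotic genes form another, joined by RRM1, RRM2 and CDK2.

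Since pools held unequal amounts of markers of each lineage, the 48 genes were set against scores of the epiblast and trophectoderm markers, comparisons added after seeing the data. With the epiblast score 0 of 48 passed by permutation, as did 0% of all genes, and 8 had an unadjusted p of 0.05 or less, or 16.7% against 9.49%. By Student's distribution 0 of 48 passed too. With the trophectoderm score 2 fell, against 2.24% of all genes, and 0 rose, against 2.16%. These were PCNA (rho = -0.64, permutation adjusted p = 0.0251) and GMNN (rho = -0.61, permutation adjusted p = 0.0343), with r of -0.63 and -0.61 without pools 14 and 32. They are 4.17% of the 48. At an unadjusted permutation p of 0.05, 13 of 48 had a negative coefficient, or 27.1%, against 11.9% of all genes, and 27.1% against 10.8% with TMM. At the same p with total counts, 2 of 48 had a positive coefficient, or 4.17%, against 9.56%. The median coefficient of the 48 was -0.18, against -0.03 for all genes, and it differed by role. It was -0.31 for the 24 mitotic genes, with 5 positive, and -0.13 for the 11 G1 genes, with 4 positive. For the 13 replication genes, which include PCNA and GMNN, it was 0.10, with 8 positive. With TMM the coefficients of PCNA and GMNN were -0.40 and -0.56, and neither passed by permutation, where 1.76% of all genes fell.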

How the data were processed

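RNA of 27 pools of 2 blastocysts was amplified with a 3' end cDNA kit and sequenced. The authors trimmed the first reads with fastp, aligned them with STAR to the ARS-UCD2.0 assembly, used featureCounts to assign them to genes, and deposited raw counts of 32637 genes without normalization. Versions and the annotation release are not given in the sources used here. Counts are of reads, not of molecules. All 27 columns were matched to pools by number, and the treatment was not assigned, so no fluids were compared.

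Column totals were the denominator of CPM, and log2(CPM + 1) was used for scores. Genes at 1 CPM in 12 pools were retained. Correlations with scores were tested with 100000 permutations, two-sided, and adjusted over all genes tested. Genes of a score were left out of its test. The lowest p that 100000 permutations can give is 1e-05. Dispersion, TMM and quasi-likelihood tests were made with edgeR 4.0.16, and size factors with DESeq2 1.42.0, in R 4.3.3. The quasi-likelihood tests scaled the counts with TMM and took the scores from total counts. Other steps used Python 3.11.15, numpy 2.4.6, pandas 2.3.3 and scipy 1.17.1. Of these, only the permutation correlation and its adjustment were tested on simulated counts, whose spread was set below the median of these data. Gene positions came from RefSeq for ARS-UCD2.0, where all 50 symbols matched. Counts of the 351 pairs of pools differed by at least 23.9 in chi-square per degree of freedom, so each pool was kept.

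The 50 genes and all lists were chosen with earlier results of these data known. By rule, every gene of the list has its median and range, and statistics are given for genes past the threshold, for the 5 most and 5 least variable, for genes not retained and for the 5 other genes closest to the mitosis score. CDC20, MAD2L1, CENPE, MKI67, TOP2A, CCND2, AURKB and CCNB2 and the pairs and complexes named were chosen after their values were seen. Alternatives were another scaling, filter, pseudocount, correlation or score, and the omission of pools.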

Additional observations from a re-analysis of the deposited data

How the results depend on the processing

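With total counts 8 genes rose with the mitosis score. By permutation there were 0 with TMM and 0 with DESeq2 size factors, 3 without a filter on low counts and 2 without the farthest pools, 33 and 31. edgeR gave 3. With the p of Student's distribution, TMM and DESeq2 size factors gave 3 each. Leaving out a pool gave 1 to 8, with a median of 6. For settings without a filter, with pools omitted or with the first principal component, the shares of all genes called are not given here, for either score. For the replication score, with 4, there were 0 with TMM and 0 with DESeq2 size factors under both kinds of p. Counted in either direction, there were 2 without a filter, 7 with the first principal component and 0 without pools 32 and 44. When a pool was left out there were 2 to 6, with a median of 3. By Pearson correlation 6 rose, against 2.28% of all genes, and 1 fell, against 0.579%. By edgeR 1 rose, against 0.792%, and 1 fell, against 1.16%. With the trophectoderm score, TMM gave 0 by permutation and 1 (GMNN) by Student's distribution. The 5 CPM filter, the pseudocount of 0.1 and the omission of pool 9 kept each of the first 2 counts within 1.5 times. No called gene changed sign. The median correlation of pairs was 0.063 with TMM, 0.063 with DESeq2 size factors and 0.10 by Pearson correlation, against 0.093. The median spread was 23.6% with total counts only and 21.7% without pool 9, against 22.8%. The replication score had rho = -0.51 with the interferon tau score with TMM (permutation adjusted p = 0.0324), against -0.34 with total counts (permutation adjusted p = 0.241). The cause of these changes was not tested. Between 44 and 48 genes were retained under every CPM limit tried. Levels per coding length were not run, as no coding lengths were used here. No paired analysis was possible because the pools were not assigned to groups. At these depths, PLK1 was above 3 counts in 12 pools and CCND1 in 15, and pools at or under 3 counts are not told from 0.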

Other observations

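Outside the lists of cell cycle genes, the genes closest to the mitosis score were PPIL2, RUVBL2, POLR3C, KDM3A and PIP4K2C, over 27 pools. PPIL2, a cyclophilin with a ubiquitin ligase domain, had rho = 0.80 (permutation adjusted p = 0.0216) and 10.6 to 37.8 CPM, and r without pools 33 and 31 was 0.71. RUVBL2, an ATPase of chromatin remodelling complexes, had rho = 0.79 (permutation adjusted p = 0.0153) and 6.52 to 22.8 CPM. POLR3C, a subunit of RNA polymerase III, had rho = 0.77 (permutation adjusted p = 0.0216), the histone demethylase KDM3A had rho = 0.77 (permutation adjusted p = 0.0153) and the lipid kinase PIP4K2C had rho = 0.75 (permutation adjusted p = 0.0153). With TMM the coefficients of the 5 genes were between 0.54 and 0.77, and none passed by permutation.

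Of 6 retained epiblast markers, 1 (DPPA3) rose with the mitosis score, against 1.44% of all genes, and 2 (DPPA3 and POU5F1) with the replication score, against 1.26%, and 0 fell. The others ranged from NANOG (rho = -0.35) to POU5F1 (rho = 0.51) with the mitosis score, and none of them passed. Of 10 trophectoderm markers, 1 (KRT19) fell with the mitosis score, against 0.277%, and 0 rose, while the others ranged from KRT18 (rho = -0.50) to TFAP2C (rho = 0.52). With the replication score 0 of 10 passed. These counts are with total counts, and with TMM 0 of these markers passed by permutation. None of 10 retained transcripts typical of the oocyte, 7 of leukocytes or 5 of cumulus and granulosa cells passed with either score. The replication score rose with the epiblast score, with rho = 0.58 (permutation adjusted p = 0.0148 over 8 relations) and r = 0.67 (permutation adjusted p = 0.0008), and r was 0.65 without pools 32 and 44. With TMM rho was 0.50 (permutation adjusted p = 0.0324), and r without the 2 pools farthest in the score with that scaling was 0.37. The single markers differed in their rho with the replication score. With total counts it was 0.73 for POU5F1, 0.69 for DPPA3, 0.45 for SOX2 and 0.38 for PRDM14. NANOG and LIN28B had -0.08 each, and 0.12 and -0.32 with TMM. The mitosis score had rho = 0.44 with the epiblast score, which did not pass (permutation adjusted p = 0.105).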
